A study of Mus musculus with 8 samples.

Results

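The integrated stress response was followed through 10 genes in gonadal white fat of mice: Trib3, Atf4, Atf5, Ddit3, Asns, Chac1, Sesn2, Eif4ebp1, Psat1 and Fgf21. They were taken by exact gene symbol from the platform annotation, which gave 19 probe sets out of 45037 and 10 genes out of 18193. The list was built around Trib3, which had already stood out as high in the knockouts of this series, so its members were chosen on the knockout and control values of these same arrays, and those values describe the genes and are not a test of them. The tissue came from 4 mouse samples labelled aP2-Pex5 -/-, aged 10 weeks, and from 4 samples labelled wild type of the same age; the control mice are given as Swiss in background, and the strain of the knockouts is not stated separately. The protein PEX5 brings enzymes into the peroxisome, and the submitters describe the knockouts as lacking functional peroxisomes in fat. The deletion is named after the aP2 (Fabp4) promoter, which is active in adipocytes. Whole tissue was arrayed and holds other cells too, and the values do not show in which cells Pex5 was deleted. The labels give no sex, do not say which exons of Pex5 were removed, and do not say whether the samples of a group came from separate animals. Each array carries the number in its label, 6, 8, 9 and 10 for knockout and 1, 2, 3 and 4 for control.

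In the integrated stress response, kinases that sense unfolded protein, lack of amino acids, viral RNA or lack of haem phosphorylate the translation factor eIF2alpha. General protein synthesis then slows, while the mRNA of the transcription factor ATF4 is translated more, and ATF4 switches on genes for amino acid supply, for redox balance and, with its partner CHOP (the product of Ddit3), for cell death. Much of the control of ATF4 is therefore in its translation, which an array of mRNA does not measure. Trib3 encodes a pseudokinase that is a target of ATF4 and CHOP and binds both of them back, and it is also known for binding AKT and, with the ubiquitin ligase COP1, acetyl-CoA carboxylase in fat.

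ATF4 and its C/EBP partners bind a composite site whose core reads TGATGNAA. This core was searched on both strands in windows of 300 bases, from 250 bases before to 50 after each RefSeq start site on GRCm38.p6. Of the 9 genes of the list with a window there, 4 held a match, Trib3, Asns, Chac1 and Fgf21, and Atf4, Atf5, Ddit3, Sesn2 and Psat1 held none in this window. Over all genes with a window the share was 4.51% (1219 of 27025 genes). The 30 bases around each match are shown because they let the list's amino acid and stress genes be compared at this site, with the core in capitals and each printed 5′ to 3′ on the strand that reads the core.
Trib3 (chr2:152344028-152344057, plus strand): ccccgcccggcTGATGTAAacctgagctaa
Asns (chr6:7693214-7693243, minus strand): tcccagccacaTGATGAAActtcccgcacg
Chac1 (chr2:119351038-119351067, minus strand): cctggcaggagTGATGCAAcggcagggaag
Fgf21 (chr7:45615611-45615640, plus strand): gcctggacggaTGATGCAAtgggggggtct
The cores of Chac1 and Fgf21 had the same 8 letters, TGATGCAA. Asns is read from the minus strand, so its core lies in the direction of transcription, from base -23 to -16 counted from the start site. The other 3 cores lie on the strand opposite to the gene, at -193 to -186 in Chac1, -139 to -132 in Fgf21 and 15 to 22 in Trib3, where the match falls just downstream of the start.
The whole window of Trib3 is given because the results turn on this gene, on its own (minus) strand at chr2:152344011-152344310, where the core appears as its reverse complement in capitals.
Trib3 window: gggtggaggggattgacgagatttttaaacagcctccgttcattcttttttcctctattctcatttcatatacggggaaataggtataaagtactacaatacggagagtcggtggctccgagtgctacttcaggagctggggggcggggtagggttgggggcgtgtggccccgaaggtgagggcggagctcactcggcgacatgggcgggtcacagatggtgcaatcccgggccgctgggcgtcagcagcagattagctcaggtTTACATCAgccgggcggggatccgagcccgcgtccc
A match of letters describes the window and does not show that a factor binds there.

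All values are log2 intensities from RMA, a method that summarises the probes of a set after correcting and normalising them, and differences are knockout minus control on that scale. The fit, limma over all 18193 genes, called 0 genes at an adjusted p under 0.05, and 466 (2.56%) had an unadjusted p under 0.05. Over all 45037 probe sets it called 0 as well, with 1139 (2.53%) at an unadjusted p under 0.05. The fat markers Adipoq, Fabp4 and Lep were high in both groups, with Adipoq at 14.49 in knockout and 14.55 in control. Pex5 itself, at probe set 1426770_at, read 9.50, 9.27, 9.38 and 9.30 in knockouts 6, 8, 9 and 10, against 9.52, 9.58, 9.34 and 9.06 in controls 1, 2, 3 and 4. These values overlap, and since the deleted exons are not stated the probe sets cannot check the labels. Arrays differed in a measure of RNA quality taken from 1 transcript, the control probe sets for pyruvate carboxylase. These read 4.65 higher at the 3′ than the 5′ end in knockout 9. They read 3.97 and 4.83 higher in controls 1 and 4, against 1.59 to 2.10 in the other 5 arrays. Below, RNA quality stands for this measure alone. By the lower quartile of their values the arrays also fell into a first set of knockouts 6 and 8 with controls 1 and 2, and a second set of knockouts 9 and 10 with controls 3 and 4; the labels name no batch.

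Trib3 was higher on all 4 knockout arrays than on any control array, by about 1.4 times on average, while the other genes of the response gave a mixed picture. Of the 10 genes, 8 had a higher mean in knockout and 2, Eif4ebp1 and Psat1, a lower one. The groups did not overlap in 2 genes, Trib3 and Atf4, where the share over all genes was 1.7% in either direction and 0.682% for knockout above control. The median difference was 0.14 over the 10 genes, 0.13 over the 9 without Trib3 and -0.01 over all genes, of which 46.7% were higher in knockout. None of the 10 passed the fit (limma adjusted p of 0.999 each), where the share over all genes was 0%. The 2 separated genes were also the ones with an unadjusted p under 0.05, where 2.56% of all genes lay in either direction and 1.18% with knockout above control. Of the 19 probe sets 3 were separated, all higher in knockout, against 1.6% of all probe sets in either direction and 0.671% with knockout above control. Since the contrast was used to choose the list, nothing is read from these counts.

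Trib3 had 2 probe sets. At 1426065_a_at it read 7.88, 7.85, 7.69 and 8.21 in knockouts 6, 8, 9 and 10, against 7.40, 7.52, 7.46 and 7.36 in controls 1, 2, 3 and 4. Every knockout array lay above every control array, with knockout 10 well above the other knockouts and a gap of 0.17 between knockout 9 and control 2. The means were 7.91 ± 0.22 in knockout and 7.44 ± 0.07 in control (SD, n = 4 each). The difference was 0.47 (limma 95% interval 0.22 to 0.73). The second probe set, 1456225_x_at, read 7.83, 7.67, 7.61 and 8.03 in knockouts against 7.32, 7.34, 7.40 and 7.24 in controls, a difference of 0.46, and its groups did not overlap either. Both probe sets put the arrays in nearly the same order (r = 0.98 over the 8 arrays). By unadjusted p Trib3 ranked 11th of all genes, and 504 genes had a difference as large or larger, of which 12, Trib3 among them, were also separated between groups. Its difference was 0.40 among the arrays of the first set and 0.54 among those of the second, and 0.43 with the 3′ to 5′ difference as a covariate.

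**Figure D1:**
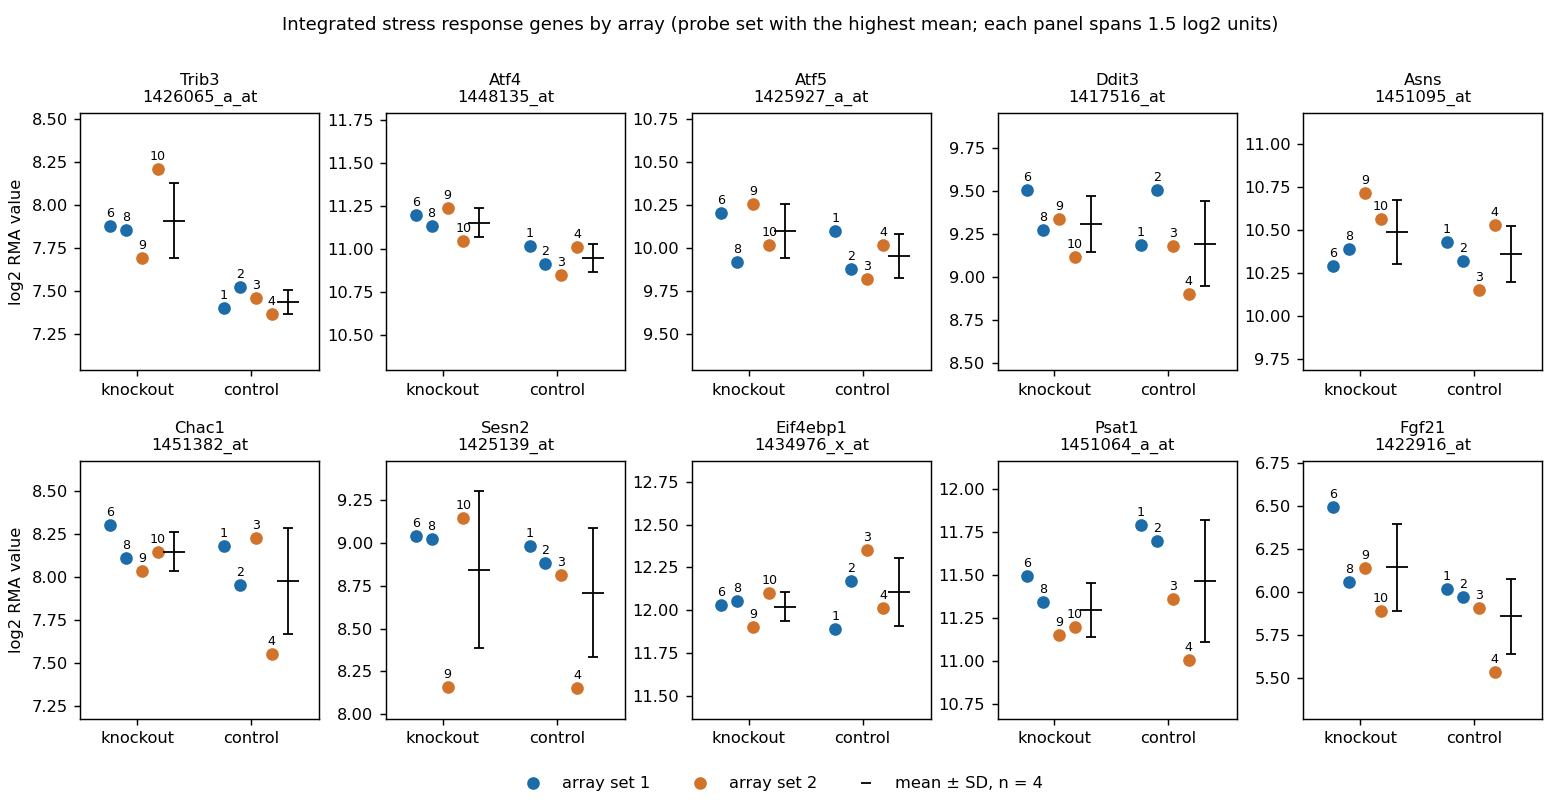
Log2 RMA value of each of the 10 genes on each array (y axis, 1.5 log2 units in every panel), knockout left and control right, with array numbers beside the points, the array set as colour, and the mean ± SD (n = 4) in black. Trib3 in knockouts lies between 7.69 and 8.21, above the controls at 7.36 to 7.52, and in Sesn2 knockout 9 and control 4 lie far below the other arrays.

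Atf4, Atf5 and Ddit3, the transcription factors of the list, leaned the same way by smaller amounts at the probe sets used for the fit. Atf4, the central activator, read 11.19, 11.13, 11.24 and 11.04 in knockouts 6, 8, 9 and 10 at 1448135_at, against 11.02, 10.91, 10.85 and 11.01 in controls 1, 2, 3 and 4. The groups were separated by only 0.03, between knockout 10 and control 1, and the means were 11.15 ± 0.08 and 10.95 ± 0.08 in knockout and control (SD, n = 4 each). The difference was 0.20 (limma 95% interval 0.04 to 0.37). Its probe set 1438992_x_at gave a like difference of 0.21, with 9.45 ± 0.11 in knockout and 9.24 ± 0.19 in control (SD, n = 4 each), but there knockouts 6 and 8 were below control 4. The third probe set, 1439258_at, averaged 4.83 in knockout and 4.89 in control, a difference of -0.06, and the 3 probe sets did not follow each other over the arrays (r from -0.43 to 0.40 between pairs). With the median of each array subtracted, or the probe sets of the gene averaged, which made the difference 0.12, the groups overlapped in Atf4 too.

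Atf5, a relative of Atf4 that it also induces, read 10.20, 9.92, 10.26 and 10.02 in knockouts and 10.10, 9.88, 9.82 and 10.02 in controls. Knockouts 6 and 9 were above all controls and knockouts 8 and 10 were among them, a difference of 0.15. Ddit3, which encodes CHOP, read 9.51, 9.28, 9.34 and 9.12 in knockouts and 9.19, 9.51, 9.18 and 8.91 in controls at 1417516_at. The groups overlapped throughout, with a difference of 0.12 that dropped to 0.02 without control 4. Its other probe set, 1443897_at, gave -0.00174 with a wide spread between arrays of a group (SD 0.45 in knockout and 0.48 in control).

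Asns and Psat1, the genes of amino acid supply in the list, differed in opposite directions. Asns, asparagine synthetase, read 10.29, 10.39, 10.72 and 10.56 in knockouts and 10.43, 10.32, 10.15 and 10.53 in controls, so that knockouts 9 and 10 were above all controls and knockout 6 was below 3 of them. Its difference was 0.13, and 0.10 at its second probe set. It was -0.04 among the arrays of the first set and 0.30 among those of the second. Psat1, which makes phosphoserine on the way to serine, was lower in knockout, with 11.49, 11.35, 11.15 and 11.20 in knockouts against 11.79, 11.70, 11.36 and 11.01 in controls. Controls 1 and 2 were above all knockouts and control 4 was below them all, and the difference of -0.17 was -0.33 among the arrays of the first set and -0.00992 among those of the second. The other probe set of Psat1 gave -0.22.

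Among the effectors, Chac1 and Sesn2 varied more from array to array than between groups, with a pooled SD within groups of 0.23 and 0.42. Chac1, which breaks down glutathione, read 8.30, 8.11, 8.04 and 8.14 in knockouts and 8.18, 7.95, 8.23 and 7.55 in controls. Controls 2 and 4 were below every knockout and controls 1 and 3 lay among the knockouts. The difference of 0.17 was 0.03 without control 4. Sesn2, sestrin 2, which restrains mTORC1 when leucine is short, read 9.04, 9.02, 8.16 and 9.14 in knockouts and 8.98, 8.88, 8.81 and 8.15 in controls at 1425139_at. In each group a single array, knockout 9 and control 4, stood far below the rest. These 2 arrays had the widest 3′ to 5′ differences. The difference was 0.13, -0.00214 with the 3′ to 5′ difference as a covariate, 0.36 without knockout 9 and -0.05 without control 4, and at the other probe set, 1451599_at, it was 0.03 with values from 7.97 to 8.39 in knockouts and 7.99 to 8.37 in controls.

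Eif4ebp1, a repressor of cap-dependent translation that ATF4 induces, was lower in knockout at its 3 probe sets, by -0.08, -0.06 and -0.13. At the probe set used for the fit it read 12.03, 12.06, 11.90 and 12.10 in knockouts and 11.89, 12.17, 12.35 and 12.01 in controls, with controls both above and below all knockouts. There the difference was 0.01 among the arrays of the first set, -0.18 among those of the second and -0.00267 without control 3. Fgf21, a hormone made by liver and, under stress, by other tissues, read 6.49, 6.06, 6.14 and 5.89 in knockouts and 6.02, 5.97, 5.90 and 5.53 in controls. Its probe set was dim, below the median level of all genes (7.58), while the other genes of the list were above it. Knockouts 6, 8 and 9 were above all controls and knockout 10 was below 3 of them, a difference of 0.29 (limma 95% interval -0.06 to 0.64) that was 0.17 without knockout 6. Markers of liver, the main source of Fgf21, ran from 5.90 to 8.78 in knockouts and from 5.92 to 11.03 in controls as the mean of 6 measured genes. All 6 were lower in knockout. In controls 1, 2, 3 and 4 the liver means were 11.03, 8.23, 7.38 and 5.92, the same order as their Fgf21 values. In knockouts 6, 8, 9 and 10 they were 8.78, 7.51, 5.90 and 6.86. Knockout 6 was the highest knockout in both, whereas knockout 9, the lowest in liver markers, was above knockouts 8 and 10 in Fgf21. Control 1, with the highest liver level, lay below knockouts 6, 8 and 9 in Fgf21. The part of liver tissue in the values of Fgf21 was not tested.

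**Figure D2:**
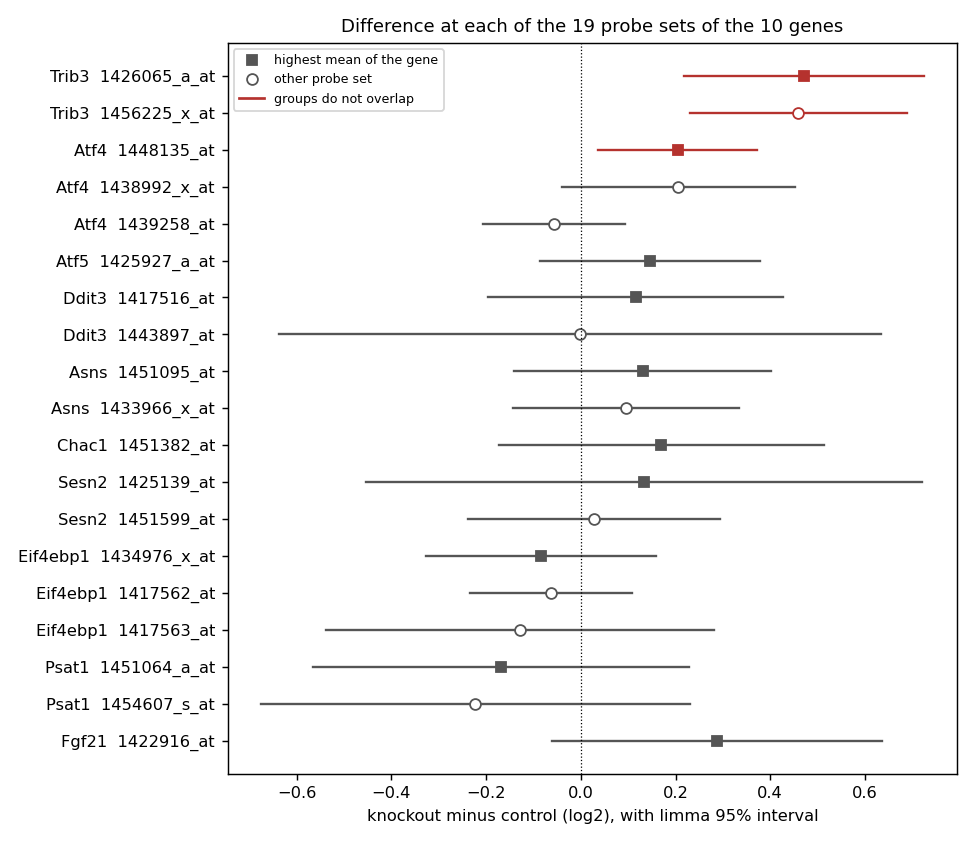
Difference between knockout and control in log2 units (x axis) with its limma 95% interval at each of the 19 probe sets, squares for the probe set with the highest mean of a gene and open circles for the others. The 3 probe sets in red, 2 of Trib3 and 1 of Atf4, are those where the groups do not overlap; 12 of 19 lie above 0.

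As an average over the list without Trib3 the groups overlapped. After subtraction of each gene's mean, the average of the 9 genes other than Trib3 was 0.17, 0.03, -0.01 and 0.02 in knockouts 6, 8, 9 and 10, against 0.06, 0.03, -0.04 and -0.26 in controls 1, 2, 3 and 4. Knockout 6 was the highest and control 4 the lowest array, and the other 6 overlapped. Control 4 held the lowest value of 6 of the 10 genes (Trib3, Ddit3, Chac1, Sesn2, Psat1 and Fgf21), while control 3 held the lowest of Atf4, Atf5 and Asns. Knockout 10, the highest in Trib3 and Sesn2, was below 3 controls in Fgf21 and was the lowest knockout in Atf4 and Ddit3. Knockout 9, the lowest knockout in Trib3, was the highest of all arrays in Atf4, Atf5 and Asns. Without the 3 arrays of wide 3′ to 5′ difference, controls 1 and 4 and knockout 9, the groups were separated in 5 of the 10 genes, Trib3, Atf4, Atf5 and Sesn2 with knockout higher and Eif4ebp1 with knockout lower, but 29.4% of all genes were separated too with so few arrays, and the fit called 0 of the 10 where it called 0.852% of all genes. Without knockout 9 alone Sesn2 was separated as well (5.16% of all genes), and without knockout 10 alone Fgf21 was (2.75%).

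**Figure D3:**
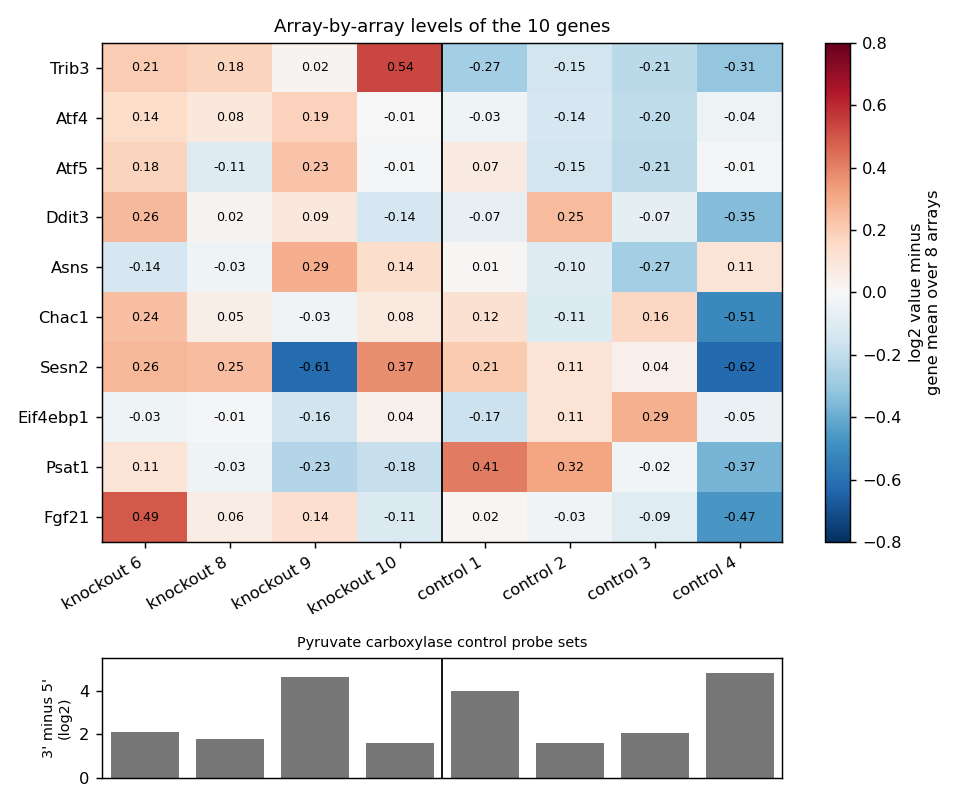
Each gene's log2 value minus its mean over the 8 arrays (colour and number; rows genes, columns arrays, knockouts left of the line), with the 3′ minus 5′ difference of the pyruvate carboxylase controls in log2 units as bars. Trib3 is above its mean on the 4 knockouts and below it on the 4 controls; Sesn2 is lowest on knockout 9 and control 4, where the bars are highest.

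Whether the other genes follow Trib3 from array to array was described with the group means subtracted, which removes the contrast that chose the list. Over the 8 arrays the deviations of Trib3 went with those of Sesn2 (Pearson's r = 0.67, Spearman's rho = 0.62) and Eif4ebp1 (r = 0.49, rho = 0.74) and against those of Atf4 (r = -0.79, rho = -0.86) and Atf5 (r = -0.51, rho = -0.45). For the other 5 genes r lay between -0.23 and 0.21 and rho between -0.55 (Asns) and 0.60 (Chac1). The median r of the 9 was -0.10, against -0.09 over all genes, but the median rho of the 9 was 0.21, so that the sign of the median depends on the measure. The opposition to Atf4 rests on the probe set used for the fit, 1448135_at. There r was -0.94 among the 4 knockouts and -0.71 among the 4 controls. It stayed between -0.92 and -0.67 when each array was left out. The probe sets of Atf4 did not follow each other, with r from -0.43 to 0.40 between pairs. At 1438992_x_at knockout 10, the lowest knockout at 1448135_at, read 9.53, above knockouts 6 and 8 at 9.37 and 9.34. The opposition is thus described for 1448135_at only. Without knockout 10, the array highest in Trib3, the median of the 9 was 0.53 and the r of Ddit3 was 0.67 in place of -0.10. These are descriptions of 8 arrays that share their normalisation, and RNA quality moves with them: the deviations of Trib3 and of Sesn2 had r = -0.67 and -0.80 with the 3′ to 5′ difference, those of Atf4, Atf5 and Asns 0.79, 0.76 and 0.75. Its part in the correlations was not tested.

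Within groups some genes of the list varied together and others oppositely. Of 45 pairs, 10 had r above 0.5 and 9 below -0.5. The share over all pairs of genes was not computed, so nothing is read from these counts. Atf4 and Atf5 varied together (r = 0.84), and Asns went with both (0.49 and 0.53). Chac1, Psat1 and Fgf21 varied together (0.72, 0.72 and 0.79 for the 3 pairs), Ddit3 with Fgf21 (0.84) and Psat1 (0.74), and Sesn2 with Chac1 (0.71) and Psat1 (0.71). Eif4ebp1 ran against Atf4 (-0.88), Atf5 (-0.80) and Asns (-0.69), and Asns against Chac1 and Sesn2 (-0.66 each). Asns and Psat1, both enzymes of amino acid synthesis, had r = -0.44. With the 3′ to 5′ difference the deviations of Atf4, Atf5 and Asns had r = 0.79, 0.76 and 0.75. Those of the other genes were negative, from -0.80 in Sesn2 and -0.75 in Eif4ebp1 to -0.23 in Fgf21. The part of RNA quality in these pairs was not tested.

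**Figure D4:**
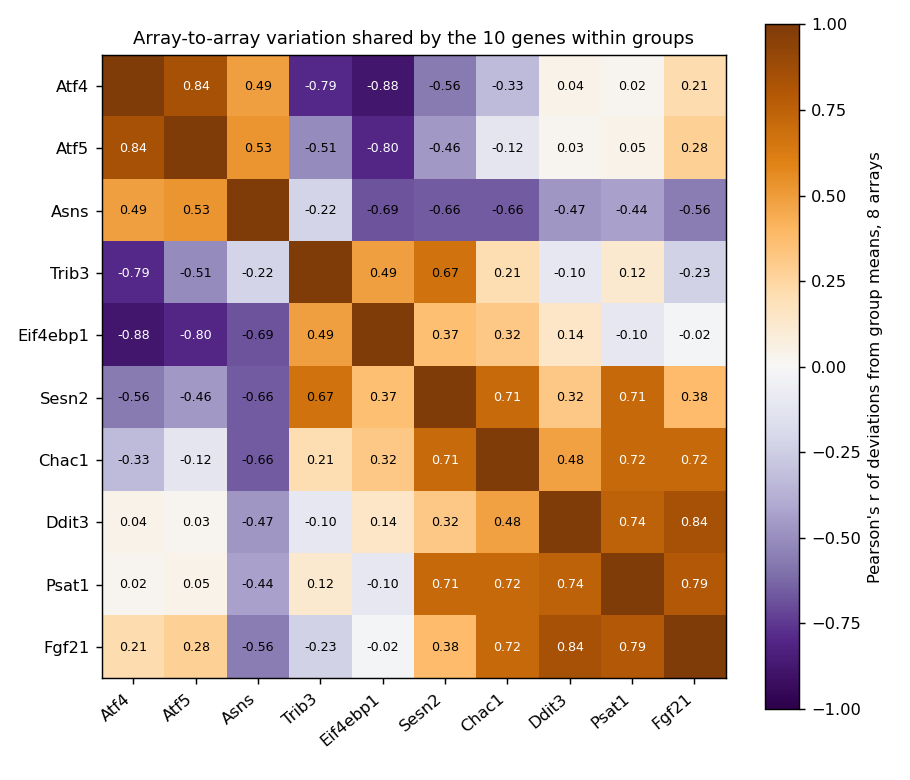
Pearson's r between the deviations from group means of each pair of the 10 genes over 8 arrays (colour and number). Atf4, Atf5 and Asns are positive with each other, Sesn2, Chac1, Ddit3, Psat1 and Fgf21 likewise, and Trib3 is at -0.79 with Atf4 and 0.67 with Sesn2.

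The genes whose pattern was most like that of Trib3 were taken from 4490 genes above the median level with an SD of at least 0.15. Over the 8 arrays they were Inpp5k (r = 0.91), Rapgef3 (0.90), Cdkn1c (0.87), Cfb (0.84) and Tcf15 (0.83). Inpp5k, a phosphoinositide phosphatase, read 9.87, 10.01, 9.81 and 10.17 in knockouts and 9.65, 9.81, 9.85 and 9.69 in controls, and it shared the peak of Trib3 in knockout 10. Rapgef3, the cyclic AMP sensor EPAC1, was 8.79 ± 0.15 in knockout and 8.43 ± 0.14 in control (SD, n = 4 each), and Cdkn1c, the cell cycle inhibitor p57, 9.09 ± 0.24 and 8.49 ± 0.20. Cfb, complement factor B, differed by 0.51 and the transcription factor Tcf15 by 0.26. With group means subtracted the most alike were Bcl2 (r = 0.88), Inpp5k (0.88), Orai1 (0.87), Ankrd29 (0.84) and Dhdh (0.81), of which Bcl2, a blocker of apoptosis, differed between groups by only 0.03 and Orai1, a calcium channel, by 0.03. Inpp5k stood in both lists. None of the other genes of the stress list was among them. Fgf21, below the median level, and Atf4 and Eif4ebp1, below the SD of 0.15, could not have been.

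Beyond the list, 108 of 112 genes named for the wider stress pathways were measured, and 0 passed the fit (limma adjusted p of 0.999 each), where the share over all genes was 0%. An unadjusted p under 0.05 was reached by 3, Bcat1, Slc3a2 and Klb, where the share over all genes was 2.56%, and the groups were separated in 0 of the 108, where it was 1.7%. Of the 108, 49 were higher in knockout. Among the sensors and brakes of the pathway, 6 of 16 genes were higher (median -0.01, with -0.06 in the first array set and 0.02 in the second). The eIF2alpha kinases PERK (Eif2ak3) and GCN2 (Eif2ak4) differed by -0.03 and 0.02, the phosphatase subunit GADD34 (Ppp1r15a) by -0.02 and the double-stranded RNA kinase Eif2ak2 by -0.08. Eif2b2, a subunit of the exchange factor eIF2B, differed by 0.10.

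Of 20 measured genes of amino acid synthesis and transport, 16 were higher in knockout, with a median difference of 0.07. Bcat1, the cytosolic branched-chain aminotransferase, read 8.53, 9.05, 8.37 and 9.59 in knockouts and 8.15, 7.88, 7.12 and 8.41 in controls. Control 4 was just above knockout 9 and the others were separated, with means of 8.88 ± 0.55 and 7.89 ± 0.56 in knockout and control (SD, n = 4 each) and a difference of 0.99 (limma adjusted p = 0.999). Slc3a2, the heavy chain shared by several amino acid transporters, read 11.38, 11.22, 11.33 and 11.17 in knockouts and 11.09, 11.01, 11.18 and 10.93 in controls, a difference of 0.22 with knockout 10 just below control 3. Its partner Slc7a5, the large neutral amino acid transporter LAT1, was picked out after its values were seen. It read 8.18, 8.39, 8.38 and 8.21 in knockouts, against 8.10, 7.10, 6.79 and 8.57 in controls, with controls 2 and 3 low and control 4 above every knockout.

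The medians of the remaining groups lay between -0.06 and 0.15, and several turned in sign between the array sets. Of 13 aminoacyl-tRNA synthetases 4 were higher (median -0.04, with -0.15 in the first set and 0.06 in the second), with Wars at 0.18 and Mars1 at -0.12; Wars was -0.10 when its probe sets were averaged. Of 17 other stress effectors 9 were higher (median 0.01, with -0.05 in the first set and -0.02 in the second), with Ddit4, an mTORC1 inhibitor also known as REDD1, at 0.50 and the transcription factor Atf3 at -0.28. Atf3 read 7.02, 7.63, 7.18 and 6.92 in knockouts but 7.45 to 7.48 in controls, so that 3 knockouts were below and 1 above all controls. In the IRE1 and ATF6 arms of the unfolded protein response 7 of 18 genes were higher (median -0.04), with the chaperone Hspa5 (BiP) at 0.12, Xbp1 at 0.01, Hyou1 at 0.14 and Pdia6 at -0.15. All 10 measured genes of mitochondrial stress were lower over the 8 arrays (median -0.06), but the median was -0.18 among the arrays of the first set and 0.06 among those of the second. Their differences ran from -0.16 in Hspd1 and Hspe1, the mitochondrial chaperonins, to -0.00897. Of 10 Tribbles proteins and their partners 5 were higher (median -0.01, with -0.08 in the first set and 0.07 in the second). Trib1 and Trib2 differed by 0.21 and 0.20 and the ubiquitin ligase Cop1 by 0.10, and acetyl-CoA carboxylase Acaca read 11.45, 11.65, 11.36 and 10.45 in knockouts and 12.84, 12.55, 11.93 and 11.05 in controls, a difference of -0.86 with the groups overlapping at control 4. Of 4 receptors for FGF21 2 were higher (median 0.15, with 0.08 in the first set and 0.21 in the second). The co-receptor Klb read 9.94 ± 0.15 in knockout and 10.34 ± 0.37 in control (SD, n = 4 each), a difference of -0.41 that was -0.79 among the arrays of the first set, -0.03 among those of the second and -0.10 with its probe sets averaged, and the receptor Fgfr3 differed by 0.56, or by 0.31 without control 3.

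**Figure D5:**
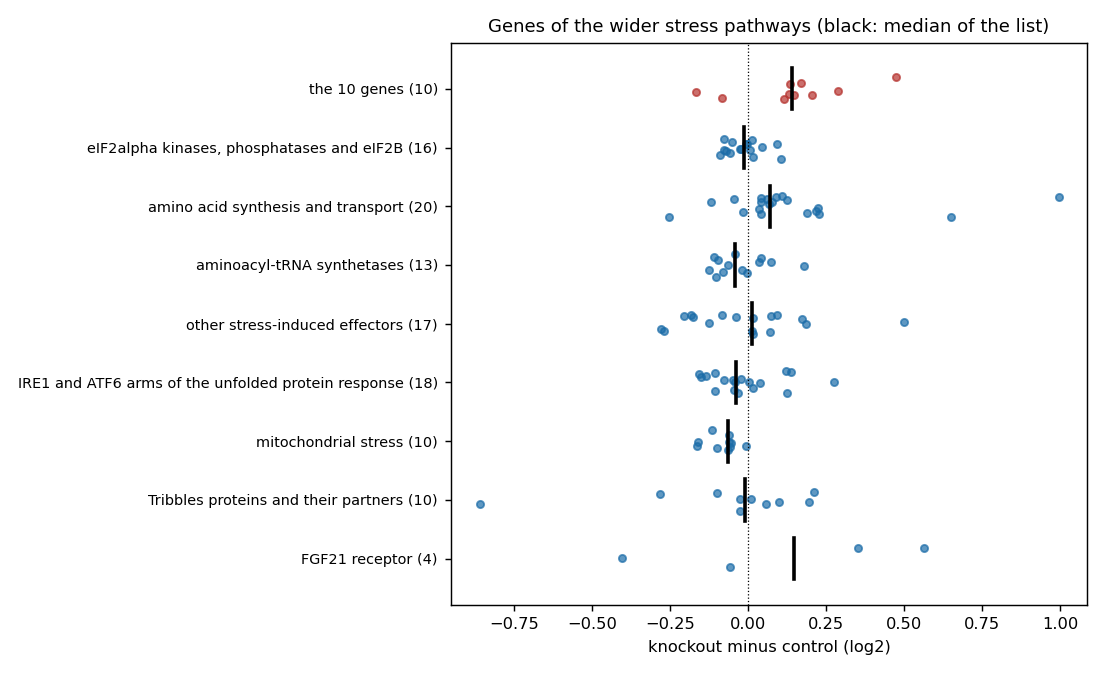
Difference between knockout and control in log2 units (x axis) for the 10 genes (red) and for each measured gene of 8 wider stress groups (blue), with the number of genes in brackets and the group's median as a black line. The median of the 10 genes is 0.14 and that of the amino acid group 0.07, while the mitochondrial stress genes lie at or below -0.00897 over the 8 arrays, with a median that turns to 0.06 within the second array set.

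Levels of other cell types did not separate the groups. As means of their measured markers, 13 cell types or tissues overlapped between knockout and control, among them macrophages (9.52 to 10.11 in knockout and 9.94 to 10.65 in control, 6 of 6 lower) and smooth muscle (8.35 to 8.74 and 7.65 to 8.83, 4 of 4 higher). Pancreas acinar markers, from an organ with a strong stress response, had means of 6.09 to 6.15 in knockout and 6.06 to 6.28 in control over 6 genes, of which Cela1 varied between arrays (9.88 ± 0.39 in knockout and 10.01 ± 0.48 in control, SD, n = 4 each). Spermatid markers stood apart on single arrays of both groups, at 9.73 on knockout 9 against 5.45 to 5.64 on the other knockouts, and at 9.01 on control 3 and 7.10 on control 4 against 5.62 and 6.07 on controls 2 and 1. Their deviations had r = -0.52 with those of Trib3 over the 8 arrays. In whole tissue, fewer cells of a type and less RNA per cell cannot be told apart, and the part of cell composition in the values of Trib3 was not tested.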

How the data were processed

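RNA of 8 gonadal fat samples was measured on Affymetrix mouse arrays, 1 array per sample. The authors used RMA, per the submitters' processing notes, in a version not given in the sources used here. From their range of 2.71 to 14.8, the values the authors deposited are log2. Trizol extraction, amplification and biotin labelling are per the labels' protocols. No detection calls come with them, and the level at which a dim probe set meets background is unknown. The number of arrays limits the precision, and a p-value reflects only how far these samples spread, which may be technical.

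The 64 control probe sets were kept out of the tests. The platform annotation of 2016 gave 1 symbol to 34945 probe sets, several to 932 and none to 9160; 34741 were matched by Entrez number to RefSeq (GRCm38.p6) and 0 changed. For a gene with several probe sets the brightest on average was used. Groups were compared with limma 3.58.1 in R 4.3.3 (lmFit, eBayes), without covariates; p-values were adjusted over the whole table by Benjamini and Hochberg and called under 0.05; the step was tested on simulated data. Correlations carry no p. Promoter sequences are RefSeq's, with 9 of 10 genes matched by symbol.

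The members and lists were chosen with earlier results of these data known. Named genes are the 10, Pex5, the 5 most like Trib3 by each measure and the 2 with the smallest unadjusted p in each pathway list; other pathway and marker genes were named after their values were seen. The fit was repeated with an intensity trend and robust variances, without dim genes, and with array medians subtracted, quantile normalisation, averaged probe sets, array weights, the array set, an RNA quality covariate and leaving out each array. Leaving out controls 1 and 4 and knockout 9 together, and counting separated genes under the alternatives, were chosen after seeing the data. Figures were drawn with matplotlib 3.10.9.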

Additional observations from a re-analysis of the deposited data

Results flagged for a closer look

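Among 38 groups of 4 arrays (19 probe sets in 2 groups), 2 held an array far from the others by Dixon's criterion, which by chance flags about 1 in 20 groups. Sesn2 at 1425139_at read 8.16 on knockout 9, where the other knockouts lay between 9.02 and 9.14. Atf4 at the dim probe set 1439258_at read 4.78 on control 1, where the other controls lay between 4.92 and 4.94.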

How the results depend on the processing

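The difference of Trib3 was positive under every alternative run, from 0.37 (without knockout 10) to 0.54, and 7 or 8 of the 10 genes were higher in knockout in each, except that the filter on dim genes dropped Fgf21 and left 7 of 9. The fit called 0 genes under each alternative but the one without controls 1 and 4 and knockout 9, chosen after seeing the data, which called 155 of 18193 (0.852%), 0 of the 10 genes and, of the pathway genes, 1, Slc7a5 (difference 1.31, limma adjusted p = 0.0404). Controls 1 and 4, left out there, were the higher controls in Slc7a5, so nothing is read from that call. Without those 3 arrays Trib3 differed by 0.49 (limma adjusted p = 0.194) and Ddit3 by -0.04. The groups were then separated in 5 of the 10 genes (Trib3, Atf4, Atf5, Sesn2 and, lower in knockout, Eif4ebp1). The share over all genes was 29.4% with 3 arrays against 2. The number separated was 1, Trib3, with array medians subtracted and with probe sets averaged, and 2 to 3 when each array was left out, the third being Sesn2 without knockout 9 (5.16% of all genes) or Fgf21 without knockout 10 (2.75%). The median r of the other 9 genes with Trib3 was 0.23 over the 8 arrays and 0.15 to 0.37 without each; of deviations from group means it was -0.10, 0.21 as Spearman's rho, 0.37 without the 2 arrays farthest from the median of Trib3, and -0.21 to 0.53 without each. Array-median subtraction moved the median of all genes to -0.04. No paired analysis was possible because the labels give the groups different replicate numbers.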

Other observations

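Of the 20 nearest measured genes, 10 on each side of Trib3 in the order of the RefSeq table, 10 were higher in knockout (median difference 0.00396). Angpt4, 6820408C15Rik and Defb29 had differences as large as that of Trib3 or larger (0.49, 0.56 and 0.97), with overlapping groups. The groups were separated in 1, where the share over all genes was 1.7%, namely Tcf15, 4 measured genes away, which was also the fifth most like Trib3 over the 8 arrays. The nearest genes, Rbck1 and Nrsn2, differed by -0.10 and -0.13.

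Bcat1, Slc7a5 and Fgfr3 had a like profile among the controls, picked out after their values were seen. Control 3 was lowest in each, at 7.12, 6.79 and 6.99, control 2 next at 7.88, 7.10 and 7.54, and controls 1 and 4 were higher in all 3. Controls 1 and 4 also had a wide 3′ to 5′ difference. The mean of 6 ovary and uterus markers had the same order, at 7.53, 7.16, 6.61 and 7.74 in controls 1, 2, 3 and 4. So did that of the smooth muscle markers, at 8.12, 7.66, 7.65 and 8.83. The parts of RNA quality and of tissue composition in this profile were not tested. The knockout minus control differences were 0.99, 0.65 and 0.56. With the 3′ to 5′ difference as a covariate they were 1.003, 0.82 and 0.64. Without controls 1 and 4 and knockout 9 they were 1.55, 1.31 and 1.12. That step takes out the higher controls of the profile by which these genes were picked out, so nothing is read from the rise.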
